A study of Mus musculus with 22 samples.

Results

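Among 8 T-cell lymphomas of mice lacking Atm, 4 had lost DNA of distal chromosome 14 and 4 had kept it. The lymphomas were selected on the array values themselves: the median log2 ratio over chromosome 14 from 50 to 60 Mb, a window of 1173 probes, was at or below -0.5 in the first set, called the lost side here, and above it in the second, the retained side. The lost side holds lymphoma mice 2, 3, 5 and 6, and the retained side holds lymphoma mice 1, 4, 7 and 8. They are 8 of the 22 arrays of the series. The other 14 arrays come from Atm-deficient mice recorded as free of findings on gross inspection, and they serve here as background.

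All 22 mice, lymphoma or not, carry the Atm deficiency. Sample DNA came from their thymocytes and was labelled with the red dye Cy5, and DNA of wildtype thymocytes, labelled with the green dye Cy3, competed with it on the same array. The mice received no treatment. Strain, age, sex and the altered part of Atm are not named in the labels, and a thymus with a tumour may still hold normal cells. The log2 ratio of red over green is 0 where sample and reference hold equal amounts of DNA, below 0 where the sample has lost DNA, and above 0 where it has gained DNA. The dyes were never swapped, so an effect of dye and one of genotype cannot be told apart. Replicate numbers name the mice and do not pair them, and each lymphoma is 1 mouse and 1 array.

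Atm is the kinase that senses DNA double-strand breaks and halts the cell until they are repaired. Developing T cells make such breaks on purpose: the RAG recombinase cuts the T-cell receptor loci and joins V, D and J segments, and broken ends that escape repair can be joined to the wrong partner. Tcra/Tcrd, the joint locus of the receptor alpha and delta chains, lies on chromosome 14, and thymic lymphomas of Atm-deficient mice are known for rearrangements there.

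The probes on which the results turn stand at the edges of the losses, and they are printed because the segmentation placed the start of each loss at them. The 5 chromosome 14 probes are the last probe before, or the first probe of, the lost DNA in a lost-side mouse, and each is 60 bases long. They are given as deposited, in lower case with no base marked, with the coordinates of the array files. The genome build and the probe strand are not given in the sources used here.
chr14:48969996-48970055: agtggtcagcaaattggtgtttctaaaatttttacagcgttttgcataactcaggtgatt
chr14:48980419-48980478: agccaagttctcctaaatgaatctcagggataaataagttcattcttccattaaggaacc
chr14:48987841-48987900: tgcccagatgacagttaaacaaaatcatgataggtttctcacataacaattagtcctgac
chr14:49013570-49013629: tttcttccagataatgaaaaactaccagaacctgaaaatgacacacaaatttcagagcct
chr14:49026549-49026608: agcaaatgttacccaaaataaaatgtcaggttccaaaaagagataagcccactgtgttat

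The 4 lost-side probes of the same kind on chromosome 12 are the first lost probe in mouse 5, mouse 3, mouse 6 and mouse 2, in map order.
chr12:97482779-97482838: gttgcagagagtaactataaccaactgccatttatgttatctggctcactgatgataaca
chr12:97552433-97552492: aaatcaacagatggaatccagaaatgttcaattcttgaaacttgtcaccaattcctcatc
chr12:97923576-97923635: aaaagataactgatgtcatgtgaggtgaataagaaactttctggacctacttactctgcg
chr12:98521898-98521957: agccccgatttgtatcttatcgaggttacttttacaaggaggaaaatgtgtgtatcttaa
The sample DNA had been cut with AluI, which cleaves at AGCT, and RsaI, which cleaves at GTAC. Both sites read the same on either strand. The first stands in 0.022% and the second in 0.014% of the 220065 autosomal probes, and neither stands in the 13 probes that flank the starts of loss on chromosomes 14 and 12. Those 13 probes hold from 30.0% to 38.3% G and C, around the median of 36.7% over all autosomal probes.

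The sides were far apart in the window that chose them. The medians over 50 to 60 Mb were -0.87, -0.83, -0.79 and -0.83 in mice 2, 3, 5 and 6. They were 0.04, 0.04, 0.28 and 0.01 in mice 1, 4, 7 and 8. The lost-side value nearest to the threshold was that of mouse 5 and the retained-side value nearest to it was that of mouse 8, so no lymphoma lay close to -0.5. With normexp background correction the highest lost-side median was -0.27, which is above that threshold. These values define the sides, and their difference between the sides was not tested. In the 14 arrays recorded as free of gross findings the same window ranged from -0.30 to 0.40, with a median of -0.05. The lowest values there, -0.30 and -0.29, were those of mice 14 and 9. Of these 14, mice 9, 11 and 14 had gains before Tcra/Tcrd, with highest means of 1.35, 2.16 and 1.93. This background is thus not free of changed DNA.

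**Figure D1:**
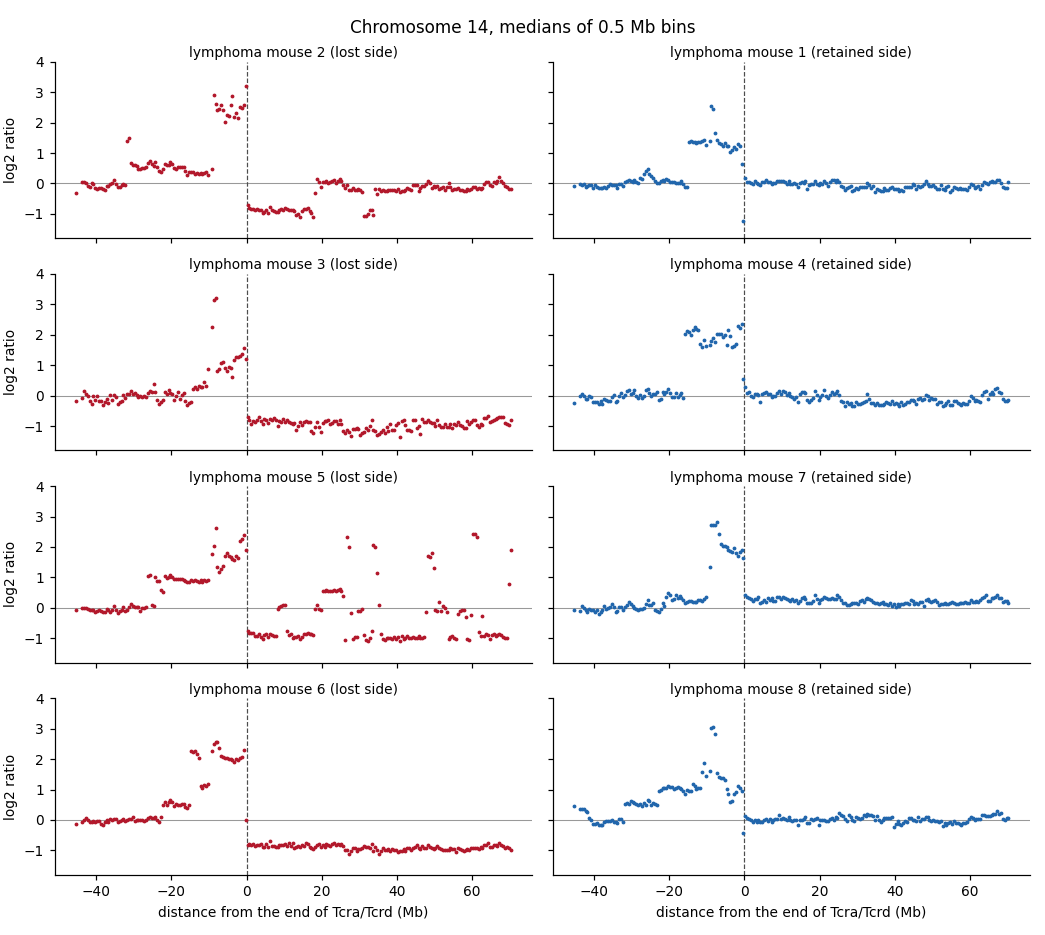
Log2 ratio along chromosome 14 in the 8 lymphomas, as medians of 0.5 Mb bins against the distance in Mb from the end of Tcra/Tcrd (dashed line), with the lost side in the left column and the retained side in the right. All 8 profiles are raised before the locus, and beyond it mice 3 and 6 stay near -0.87 and -0.88, mice 2 and 5 alternate between levels, and the retained side shows no such levels, with means beyond the locus of -0.05 to 0.25.

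The shape of chromosome 14 before the locus did not separate the sides. Medians from 40 to 50 Mb were 2.35, 1.08, 1.65 and 1.99 in lost-side mice 2, 3, 5 and 6. They were 1.18, 1.82, 1.92 and 0.95 in retained-side mice 1, 4, 7 and 8. The ranges overlap, and every lymphoma was amplified there. Of the listed genes before the locus, 7 were measured. Psmc6, a subunit of the proteasome, and Gnpnat1, which acts in making amino sugars, had the highest means. Psmc6 had log2 ratios of 3.13, 3.69, 2.79 and 2.63 in mice 2, 3, 5 and 6, and of 2.58, 2.0, 2.94 and 2.98 in mice 1, 4, 7 and 8. Parp2 and Apex1, which act in the repair of single-strand breaks and damaged bases, ran from 0.98 to 2.50 in the 8 lymphomas. Nrg3, which encodes a ligand of the receptor ErbB4, ran from 0.21 to 2.21, with mice 3 and 7 at 0.33 and 0.21. The stretch gained at 0.4 or more before the locus summed to 30.0, 8.68, 23.9 and 20.9 Mb in mice 2, 3, 5 and 6 and to 13.2, 14.7, 8.76 and 30.3 Mb in mice 1, 4, 7 and 8.

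The loss began inside Tcra/Tcrd in all 4 lost-side lymphomas. The locus is taken from the end of Sall2 to the start of Dad1, chr14:47658042-49106106, with 147 probes. In mice 3 and 6 the first lost probe was the same, at 48987841, and it lay 118 kb before the end of the locus. In mouse 6 the probes stayed below 0 from there on. In mouse 3 only 2 probes were low at that place, at -1.46 and -1.27, the next 3 read 0.10, 0.33 and 0.47, and lower values set in again 79.5 kb before the end, so its start is less certain. In mouse 2 the step down was 1 probe earlier, at 48980419, which is 126 kb before the end. In mouse 5 it was at 49026549, which is 79.6 kb before the end. The 4 starts therefore lay at the end of the locus nearest Dad1. A segmentation with a penalty of 6 in place of 3 per break gave the same 4 starts. In mice 2 and 5 these starts opened deep segments, at -2.85 and -3.56 in mouse 2 and at -3.18 in mouse 5. The long stretches at -0.87 and -0.86 followed from 49068840 in mouse 2 and 49060723 in mouse 5, still within the locus. Whether the deep segments belong to the same loss was not tested. No difference between the sides on chromosome 14 is read from a test, since the rule used that chromosome. Its genes did stay in the limma fit and adjustment given below.

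**Figure D2:**
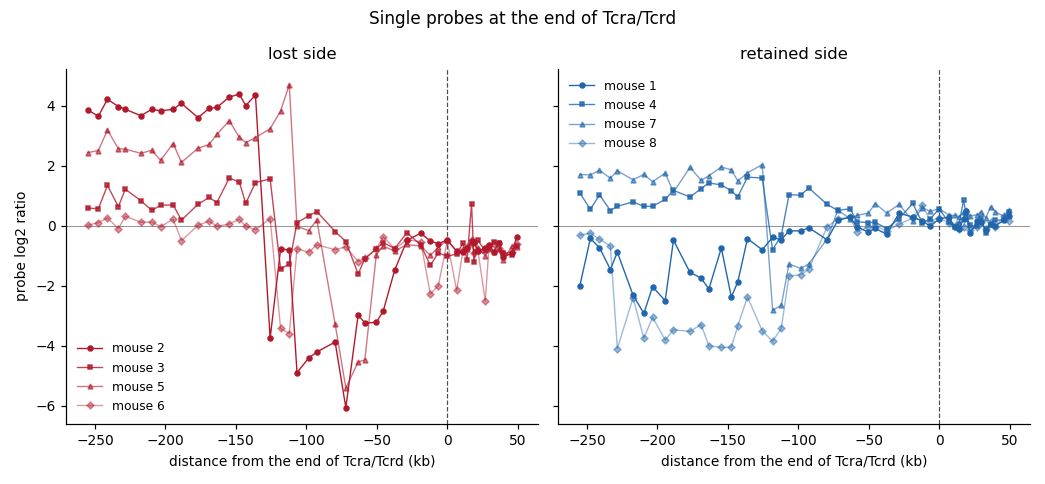
Log2 ratio of single probes against the distance in kb from the end of Tcra/Tcrd (dashed line), lost side on the left and retained side on the right, with 1 line per mouse. The first lost segments of mice 2, 3, 5 and 6 begin 126, 118, 79.6 and 118 kb before the end, in mice 2 and 5 as deep segments. Single probes also step down there in retained-side mice 4 and 7. Beyond the locus the lost-side probes lie below 0 except 1 of mouse 3 at 0.73.

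Single probes at the same place were also low on the retained side. At chr14:48980419-48980478, the second probe printed above, the log2 ratio was 1.56 in mouse 3 and 0.24 in mouse 6, and it was 2.04 in retained-side mouse 7 and 1.59 in retained-side mouse 4. At the next probe, chr14:48987841-48987900, it was -1.46, -3.43, -2.83 and -0.81 in these same 4 mice. In mouse 4 the dip covered 2 probes, and the next 3 read 1.03, 1.02 and 1.25. Mouse 8 of the retained side was low at both, at -3.50 and -3.86. Mouse 5 was still amplified there, at 3.82, and fell to -3.28 at chr14:49026549-49026608. Mouse 2 stood at 4.35 and then at -3.76 on the first and second printed probes. The last amplified segment, one with a mean of 0.8 or more, ended 136, 126, 92.5 and 473 kb before the end of the locus in mice 2, 3, 5 and 6. It ended 600, 79.5, 126 and 483 kb before it in mice 1, 4, 7 and 8. Both sides thus had amplification ending within the locus, with overlapping distances. Segments at -1.5 or lower lay within the locus in lost-side mice 2 and 5, over 74.6 and 29.3 kb, and in retained-side mice 1, 7 and 8, over 228, 25.8 and 116 kb.

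Beyond the locus the lost side was not uniform. Chromosome 14 continues for 70.1 Mb to the last probe, and mice 3 and 6 had lost all of it, at means of -0.87 and -0.88. Mouse 2 had lost 21.3 Mb, 30.4% of that stretch, as 1 piece of 18.2 Mb that follows the locus and 1 piece of 3.06 Mb further on, and its other stretches lay at 0.01 and -0.10. Mouse 5 had 13 lost stretches that sum to 43.0 Mb, 16 stretches near 0 and 17 gained stretches. Its lost stretches lay between -1.02 and -0.86, its stretches near 0 between -0.17 and 0.05, and its gained stretches between 0.47 and 3.14. On the retained side, chromosome 14 beyond the locus formed 1 stretch without a step of 0.4 in each lymphoma, and the 4 means were -0.04, -0.05, 0.25 and 0.02 in mice 1, 4, 7 and 8. Mouse 7 lay at the threshold of 0.25 used for calls below, and most listed genes beyond the locus were in a called gain in it. For these descriptions neighbouring segments whose means differ by less than 0.4 were joined.

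The DNA lost in all 4 lost-side lymphomas summed to 17.1 Mb in 4 stretches, 24.3% of the chromosome beyond the locus. The stretches were chr14:49106107-57109541, which runs from Dad1 to Kcnrg, chr14:59781216-66454463, from Ints9 to Gfra2, chr14:66658958-66979448 and chr14:80183833-82251906, from Diaph3 to Tdrd3. They hold 269 of the 532 genes with a probe beyond the locus.

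Genes just beyond the locus were low throughout the lost side. All 9 listed genes measured there had a lost-side mean at or below -0.25, against 5.78% of all autosomal genes; the rule used this stretch, and nothing is read from the count. Dad1, an essential subunit of the complex that attaches sugars to new proteins, had log2 ratios of -0.70, -0.59, -0.71 and -0.94 in mice 2, 3, 5 and 6. It had 0.11, 0.30, 0.40 and 0.03 in mice 1, 4, 7 and 8. Ripk3, a kinase of programmed necrosis, had -0.45, -0.63, -0.65 and -0.74 on the lost side and 0.17, 0.29, 0.27 and 0.19 on the retained side. Irf9, which carries interferon signals to the nucleus, had -0.82, -0.51, -0.75 and -0.79 on the lost side and lay between -0.10 and 0.17 on the retained side. Values of Prmt5, Mmp14, Bcl2l2, Gzmb, Ctsg and Cma1 rest on 1 or 2 probes each. Their lost-side means ran from -0.97 to -0.45.

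All 12 genes measured in the middle list also had lost-side means at or below -0.25, against 5.78% of all autosomal genes. The rule used this chromosome, and nothing is read from this count either. Lats2, a kinase of the Hippo growth-control pathway, had -0.77, -0.55, -0.75 and -0.93 in mice 2, 3, 5 and 6 against -0.05, 0.07, 0.49 and 0.06 in mice 1, 4, 7 and 8. Bnip3l, which marks mitochondria for removal, was lowest among the genes with at least 3 probes, at -1.04, -1.22, -1.0 and -1.30 on the lost side. Tnfrsf10b, the death receptor for the ligand Trail, had -0.73, -0.84, -0.75 and -0.76. Gata4, a transcription factor of heart and gut, and Blk, a kinase of the Src family, fell in a gap of the loss in mouse 5, where they stood at 0.09 and 0.08. Trim13, at the edge of the Dleu2 region, rests on 1 probe whose values scatter on both sides, from -1.46 to -0.05 on the lost side and from -0.85 to 0.20 on the retained side.

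Members of the distal list split within the lost side. Of 15 measured, 10 had a lost-side mean at or below -0.25, beside the 5.78% of all autosomal genes. The rule used this chromosome, and mice 3 and 6 had lost all of it beyond the locus, so nothing is read from the count. Rb1, the retinoblastoma suppressor that restrains entry into the cell cycle, had log2 ratios of -0.70 and -0.84 in mice 3 and 6 over 23 probes. In mice 2 and 5 it stood at 0.17 and 0.09, among the retained-side values of 0.07, 0.13, 0.36 and -0.01. Elf1, a transcription factor of lymphoid cells, was at -0.74 and -0.83 in mice 3 and 6, at 0.19 in mouse 2 and at 0.66 in mouse 5. Diaph3, a regulator of the actin skeleton, was low in all 4, at -0.93, -0.97, -1.01 and -0.92 over 70 probes. Gpc5, a cell-surface proteoglycan gene with 190 probes, was at -0.87 and -0.94 in mice 3 and 6, near 0 at -0.13 in mouse 2 and amplified to 2.06 in mouse 5. Mycbp2 and Ednrb showed the same contrast, with 1.69 and 1.70 in mouse 5 and -0.79 and -0.84 in mouse 3.

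Outside chromosome 14 the amount of changed DNA did not separate the sides. Segments with a mean of 0.25 or more in size were called, without receptor loci and without segments that at least 11 of the 22 arrays shared in 1 direction. The called length was 251, 205, 218 and 175 Mb in mice 2, 3, 5 and 6. It was 188, 407, 108 and 207 Mb in mice 1, 4, 7 and 8. The means were 212 ± 31.5 Mb (SD, n = 4) and 228 ± 127 Mb (SD, n = 4), and the exact two-sided permutation test gave p = 0.857, where 0.0286 is the smallest p that 70 splits of 4 against 4 allow. These p-values measure the spread between mice. Gained DNA summed to 178 ± 25.0 Mb (SD, n = 4) on the lost side and 145 ± 46.4 Mb (SD, n = 4) on the retained side, with exact p = 0.40. Their difference of 33.2 Mb was 10.2 Mb without mouse 7, 21.1 Mb without mouse 2 and 87.3 Mb with normexp. Lost DNA summed to 34.4 ± 12.4 Mb (SD, n = 4) and 82.8 ± 104 Mb (SD, n = 4), with exact p = 0.657. The wide spread of the latter comes from mouse 4, with 238 Mb. Before segments were left out, 242 Mb were called lost in mouse 4, and 205 Mb of them lay between -0.25 and -0.40. Without mouse 4 the difference in altered DNA turned from -15.2 to 44.5 Mb, with exact p = 0.286.

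**Figure D3:**
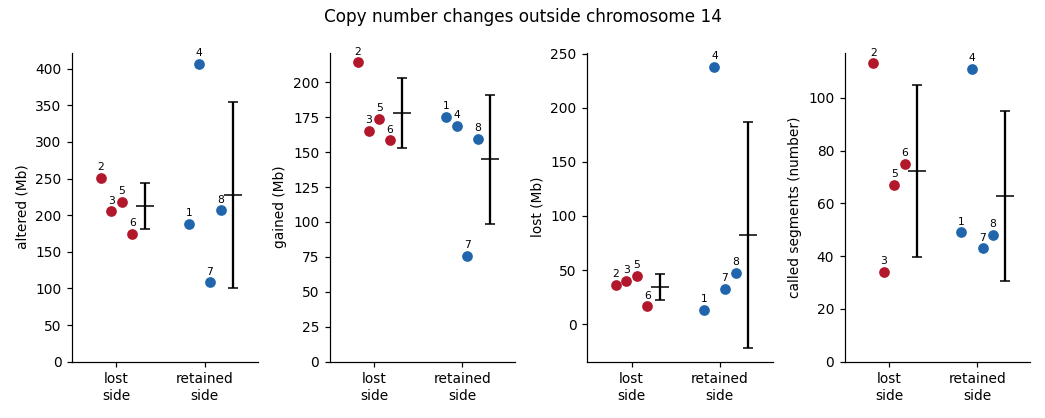
Altered, gained and lost DNA in Mb and the number of called segments outside chromosome 14, with 1 point per lymphoma (numbered by mouse) and bars for mean and SD of each side (n = 4). The sides overlap in all 4 measures, and mouse 4 stands highest in altered and lost DNA at 407 and 238 Mb.

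Nor did the number of called segments separate them. It was 113, 34, 67 and 75 in mice 2, 3, 5 and 6 and 49, 111, 43 and 48 in mice 1, 4, 7 and 8, with means of 72.3 ± 32.4 and 62.8 ± 32.3 (SD, n = 4 each) and exact p = 0.629. Breaks were also counted as steps between joined segments, in 16 forms chosen after seeing the data. Unlike the called segments, these counts include the receptor loci outside chromosome 14 and the shared segments. With steps of 0.4 and no minimum length, the lost side had 52, 34, 52 and 71 steps and the retained side 31, 24, 20 and 31, with exact p = 0.0286, unadjusted for the 16 forms and the smallest the design allows. It was below 0.05 in 3 of the 4 forms without a minimum length. In the 12 forms that count only stretches of at least 0.5, 1 or 2 Mb, the smallest p was 0.457. With stretches of at least 0.5 Mb and steps of 0.4 the counts were 9, 21, 11 and 8 on the lost side and 17, 11, 7 and 13 on the retained side. With steps of 0.4 and no minimum length, chromosome 6, which carries Tcrb and Igk, gave 15 and 11 steps in mice 2 and 5. It gave 2 to 4 in the other lymphomas. Chromosome 5 gave 25 in mouse 6 and chromosome 4 gave 18 in mouse 2. On the retained side the most outside chromosome 14 was 13, on chromosome 12 of mouse 8.

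Of the scan days recorded in the file headers, 2 held lymphomas of both sides. On the first, altered DNA in mouse 3 minus the mean of mice 1 and 4 was -92.1 Mb. On the other, mouse 6 minus mouse 7 was 66.5 Mb. The same differences in the number of called segments were -46 and 32. With the scan day as a block, which leaves 6 arrangements, the difference in altered DNA was -24.2 Mb with exact p = 1, and p = 0.167 is the smallest it could reach. The first of these days also used another scanner than the rest.

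Medians of whole chromosomes outside 14 did not separate the sides. None of the 18 medians passed after Benjamini-Hochberg adjustment of exact permutation p-values, and 1, that of chromosome 19, had an unadjusted p under 0.05. Its medians were 0.01, 0.01, -0.01 and -0.01 in mice 2, 3, 5 and 6 and -0.02, -0.12, -0.01 and -0.03 in mice 1, 4, 7 and 8, with exact p = 0.0286 and adjusted p = 0.514. Chromosome 15, which carries Myc, was raised in both sides. Its medians were 0.42, 0.52, 0.57 and 0.51 on the lost side and 0.53, 0.54, 0.47 and 0.15 on the retained side, with adjusted p = 0.831 by the exact permutation test. Mouse 8 stood lowest. Chromosome 1 was highest in mice 3 and 5, at 0.14 and 0.10, with mouse 8 of the retained side at 0.09, and its adjusted p was 0.823 by the same exact test. The X chromosome, which took no part in the tests, had a median of -1.05 in mouse 1 and -1.08 in mouse 4, both on the retained side, while the other 6 lymphomas lay between -0.18 and -0.07. The Y chromosome had medians of 1.43 and 4.20 in mice 1 and 4 and lay between -0.28 and 0.13 in the other 6. Sex is not named in the labels, so these X and Y values are not read as lost or gained DNA. Their part in the comparisons was not tested.

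**Figure D4:**
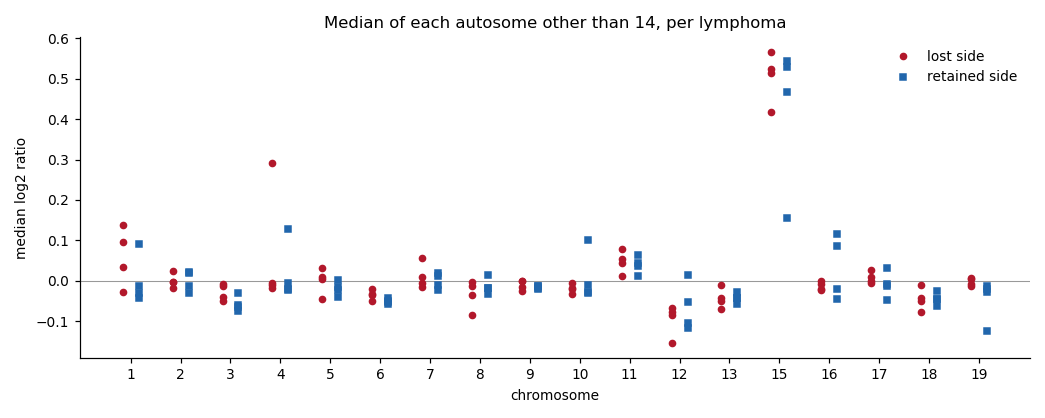
Median log2 ratio of each autosome other than 14, with circles for the 4 lost-side and squares for the 4 retained-side lymphomas. Chromosome 15 lies between 0.42 and 0.57 in 7 lymphomas and at 0.15 in mouse 8, and the sides overlap on every chromosome shown except 19.

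The receptor loci outside chromosome 14 likewise did not separate the sides, and none of 5 passed the adjusted exact permutation test. None had an unadjusted p under 0.05. Each locus was measured as its median minus that of the flanking 1 Mb on either side. Igh, the antibody heavy chain locus on chromosome 12, was at -0.06, 0.03, -0.07 and -0.01 on the lost side and at -0.23, -0.07, -0.20 and -0.06 on the retained side, with exact p = 0.0571 and adjusted p = 0.286. Without the flanks subtracted the Igh difference turned from 0.11 to -0.14. The flanks themselves were at -0.80, -0.85, -0.87 and -0.81 on the lost side and at -0.10, -0.85, -0.60 and -0.78 on the retained side. In mice 1 and 7 a gained stretch, at 0.56 and 1.27, reached into the start of Igh. Stretches at -0.36 and -0.85 followed to the end of the chromosome. Their flanks thus mix 2 levels, and their Igh values of -0.23 and -0.20 depend on that mixture. Tcrb, the locus of the beta chain, was at -0.72, 0.77, -0.69 and -0.34 on the lost side and at 0.15, 0.24, -0.45 and -0.38 on the retained side, with adjusted p = 0.80 by the exact test. Mouse 3 was highest there and mice 2 and 5 were lowest, and segments within Tcrb fell to -4.16 and -3.65 in mice 2 and 5. The reference is thymocyte DNA too, so a value above 0 in this locus need not be a gain of DNA. In the arrays without a lymphoma Tcrb ran from -0.49 to 0.44. Tcrg, Igk and Igl had adjusted p = 0.50 each by the same exact test. As a check of the label, DNA of T-lineage cells should show rearranged T-cell receptor loci: all 8 lymphomas had steps within Tcra/Tcrd, while in Igk, a locus rearranged in B cells, the lowest segment lay between -0.25 and -0.09 in the 6 lymphomas that had one. Igh, also rearranged in B cells, had 5 segments down to -2.20 in mouse 5 and 4 down to -1.03 in mouse 4. Some stretches within Igh had the same ends in different mice, chr12:112554587-112633616 in mice 3 and 4 and chr12:112809701-112852109 in mice 5 and 8. Tcrg, a T-cell locus, had a segment in mouse 2 alone. The loci therefore do not decide the label. On the lost side the Tcra/Tcrd steps include the starts of the loss itself.

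Distal chromosome 12 differed in shape, which was noticed in the profiles and is described without a test. On the lost side the first lost stretch of at least 0.5 Mb started at 98.5, 97.6, 97.5 and 97.9 Mb in mice 2, 3, 5 and 6, a span of 1.04 Mb, and from there to the end of the chromosome 19.3, 20.1, 20.2 and 19.6 Mb were lost. The 4 chromosome 12 probes printed above mark these starts. Mice 3 and 5 broke within Kcnk13, a potassium channel gene, and mouse 2 within Ccdc88c. On the retained side the starts lay at 102, 103, 104 and 90.4 Mb in mice 1, 4, 7 and 8, a span of 13.8 Mb. Gains of 0.4 or more stood on chromosome 12 of retained-side mice 1, 7 and 8, over 18.9, 3.38 and 9.40 Mb, and on none of the lost side or of mouse 4. At the first probe lost in mouse 3, chr12:97552433-97552492, mice 3 and 5 had -1.0 and -1.01, mouse 8 had -0.56, and mouse 1 had 1.33.

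**Figure D5:**
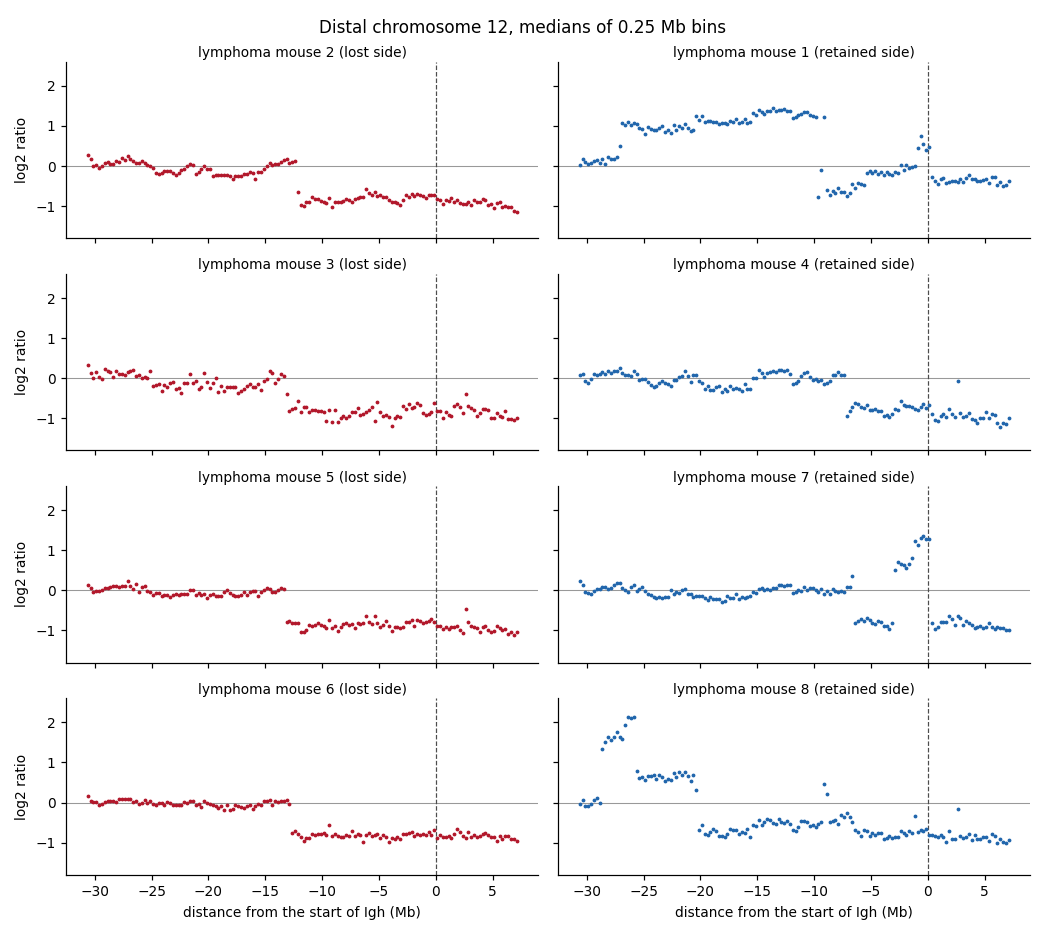
Log2 ratio along distal chromosome 12 as medians of 0.25 Mb bins against the distance in Mb from the start of Igh (dashed line), lost side on the left and retained side on the right. The first lost stretch of at least 0.5 Mb starts within a span of 1.04 Mb in the 4 lost-side profiles and of 13.8 Mb in the retained-side profiles, with gained DNA in mice 1, 7 and 8.

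Gene by gene, few differences outside chromosome 14 passed. Values are means over a gene's probes, and limma was fitted on the 12974 autosomal genes with at least 3 probes. The Benjamini-Hochberg adjustment ran over all of them, including 515 on chromosome 14, of which 128 passed. The rule used that chromosome, so these 128 loosen the cut for every other gene. An adjustment without chromosome 14 was not run. Of the 12459 outside chromosome 14, 2 passed an adjusted p of 0.05 on that footing, which is 0.0161%, and 925 had an unadjusted p under 0.05. The sides did not overlap for 358 genes lower on the lost side, 2.87%, and for 368 genes higher, 2.95%. Otol1, which encodes a protein of the inner ear, on chromosome 3 had log2 ratios of -0.41, -0.40, -0.26 and -0.28 in mice 2, 3, 5 and 6 and of 0.05, -0.01, 0.08 and 0.00 in mice 1, 4, 7 and 8. Its difference was -0.37 (SE 0.055) with limma p = 1.3e-04 and adjusted p = 0.0140. The transcript BC042784 on chromosome 9 had 0.12, 0.16, 0.01 and 0.02 on the lost side and -0.25, -0.22, -0.23 and -0.20 on the retained side. The difference of BC042784 was 0.30 (SE 0.052) with limma p = 3.2e-04 and adjusted p = 0.0330. Each rests on 4 probes, the 2 genes were named after their values were seen, and both calls were lost with the scan day as a term or with normexp background correction. The call for BC042784 was also lost on leaving out any mouse other than mouse 5, with centring on the mode and with genes of at least 1 probe, and that for Otol1 on leaving out mouse 1 or mouse 7 and in the fit on all 22 arrays. Neither gene lay in a called segment of any lost-side lymphoma, and Otol1 lay in a called loss in retained-side mouse 4.

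The largest differences, given as values with no call, lay on 3 chromosomes. The 5 with lower values on the lost side were Serpina9, Golga5, Ifi27, Tmem179 and Catsperb, all on chromosome 12 beyond the lost-side starts of loss. All but Tmem179 lie before the starts in retained-side mice 1, 4 and 7. Serpina9, a protease inhibitor gene, had -0.94, -1.13, -1.01 and -0.91 in mice 2, 3, 5 and 6 and 1.51, 0.03, -0.20 and 0.57 in mice 1, 4, 7 and 8. Its difference was -1.47 (SE 0.33) with limma adjusted p = 0.158. Golga5, which encodes a protein of the Golgi apparatus, differed by -1.16 with limma adjusted p = 0.378. Mouse 1 was highest in all 5. Without mouse 1, 12 genes outside chromosome 14 passed, all of them on chromosome 12 and lower on the lost side. The fit on all 22 arrays called 36 genes outside chromosome 14, 25 of them lower on chromosome 12. Both adjustments held the chromosome 14 genes, of which 124 and 155 passed, and this loosens the cut for the others.

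The 5 largest differences with higher values on the lost side were Slc45a1, H6pd, Mtarc2, Utp25 and Scyl3. Slc45a1 and H6pd, on chromosome 4, were amplified in mouse 2 alone, at 3.28 and 3.43. Utp25, a factor of ribosome assembly on chromosome 1, had 0.42, 1.10, 0.78 and 0.82 on the lost side and 0.06, 0.13, 0.29 and -0.01 on the retained side, with limma adjusted p = 0.111. Without mouse 2, which had the lowest lost-side value of Utp25, 49 genes passed outside chromosome 14, 45 of them on chromosome 1 and higher on the lost side. That adjustment also held the chromosome 14 genes, of which 178 passed, and this loosens the cut for the others. The Atm gene itself, on chromosome 9, stood between 0.12 and 0.31 in the 8 lymphomas, and no probe there is known to lie in the altered part, so it checks no label.

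Of 27 measured genes of T-cell lymphoma outside chromosome 14, 23 had enough probes for the limma test. None passed, and none had an unadjusted p under 0.05; their median difference was -0.01, against 0.02 over all genes tested outside chromosome 14. Those changed in at least 3 lymphomas of a side were Bcl11b, Akt1, Myc, Il7r and Lck. Bcl11b, the transcription factor that commits cells to the T lineage, lies on chromosome 12 and had -0.68, -0.67, -0.72 and -0.83 in mice 2, 3, 5 and 6 and -0.13, -0.61, -0.62 and -0.62 in mice 1, 4, 7 and 8, with limma adjusted p = 0.562. It lay in a called loss in 4 lost-side and 3 retained-side lymphomas; a called loss in at least 3 lymphomas covered 1.05% of genes outside chromosome 14 on the lost side and 0.326% on the retained side. Akt1, a kinase of growth and survival beyond Bcl11b, was at -0.64, -0.73, -0.74 and -0.72 on the lost side, whereas the retained side held 0.69, -0.70, 1.26 and -0.64, with limma adjusted p = 0.562. Myc rests on 1 probe, which read 1.02, 0.94, 0.80 and -1.25 on the lost side and 0.87, 0.93, 0.71 and 1.84 on the retained side. The probe and its surroundings differed in mouse 6, where Myc lay in a called gain, and in mouse 8, where it lay in none. Il7r, the receptor for interleukin 7, on the same chromosome, had 0.20, 0.75, 0.77 and 0.56 on the lost side and 0.60, 0.79, 0.04 and 0.32 on the retained side. Lck, the kinase that starts T-cell receptor signals, was in a called gain in 3 retained-side lymphomas and in none of the lost side, with values of 0.25, 0.31, 0.23 and -0.44 on the lost side and 0.17, 0.57, 0.40 and 0.57 on the retained side, and limma adjusted p = 0.562. A called gain in at least 3 lymphomas covered 5.88% of genes outside chromosome 14 on the lost side and 3.65% on the retained side.

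Single lymphomas stood out at other known genes. Notch1, the receptor that drives early T-cell growth, was at 0.89 and 2.20 in mice 2 and 3 of the lost side, at 1.75 in mouse 1 of the retained side, and between 0.08 and 0.32 in the other 5. Runx1 was at 1.91 in mouse 1 alone, and Cdkn2a, which encodes cell cycle inhibitors, was at -1.02 in mouse 3 and 0.48 in mouse 2.

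Of 21 measured genes of DNA repair and recombination outside chromosome 14, 17 were tested. None passed the limma test, none had an unadjusted p under 0.05, and the median difference was 0.04. Xrcc6 and Parp1 were in a called gain in at least 3 lymphomas of a side. Xrcc6, a subunit of the Ku complex that binds DNA ends, lies on chromosome 15 and had 0.69, 0.83, 0.85 and 0.59 on the lost side and 0.47, 0.71, 0.75 and 0.23 on the retained side, with limma adjusted p = 0.587. Parp1, a sensor of DNA breaks on distal chromosome 1, had 0.22, 0.78, 0.72 and 0.71 on the lost side and 0.19, 0.76, 0.25 and 0.39 on the retained side, with limma adjusted p = 0.642.

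Array noise overlapped between the sides, with mouse 3 highest. The noise between neighbouring probes was 0.15, 0.37, 0.15 and 0.17 in mice 2, 3, 5 and 6 and 0.20, 0.20, 0.16 and 0.23 in mice 1, 4, 7 and 8. Dim spots, those not well above background in the red or the green channel, made up 0.21% to 1.34% of a lymphoma array. The number of arrays, 4 a side, limits the precision of every comparison.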

How the data were processed

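Genomic DNA of 22 Atm-deficient mice was hybridised against wildtype DNA on Mouse Genome CGH 244A arrays, after caesium chloride extraction, digestion with AluI and RsaI and Klenow labelling, per the labels' protocols. The deposited intensity values are the red and green processed signals of Feature Extraction 9.1.3.1 (protocol CGH-v4_91), which had subtracted background and normalised the dyes, per the file headers. The deposited log10 ratios in the scanner files equal the deposited value table (largest difference 0.0), whose column medians ran from -0.0209 to 0.0173. Ratios are red over green, as the labels state the dyes. Array pairs correlated from -0.48 to 0.87 over all 22 arrays and from -0.00 to 0.66 among lymphomas.

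Log2 ratios of 220065 autosomal probes were centred on each array's autosomal median. The lymphomas were split, and the gene lists chosen, with earlier results of these data known. Segments came from optimal partitioning (penalty 3, at least 5 probes) and were called at 0.25. Sides were compared by exact two-sided permutation tests over 70 splits. Genes with at least 3 probes were compared by limma 3.58.1 in R 4.3.3 with Benjamini-Hochberg adjustment over all autosomes, chromosome 14 included. Python 3.11.15, numpy 2.4.6 and scipy 1.17.1 were used, and the code was tested on simulated data. Named genes are those listed on chromosome 14, genes at breaks, listed genes changed in at least 3 lymphomas of a side, and the 5 largest differences each way. Of 24600 gene names, 11691 matched a RefSeq GRCm38.p6 symbol and 3385 a synonym, and 9524 were kept as in the files. Alternatives were centring, normexp (on median signals, since the files used hold no mean signals), the deposited log ratio, dim spots, segmentation, probe minimum, scan day and leaving out each lymphoma. Some genes that the rule names are not reported here.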

Additional observations from a re-analysis of the deposited data

Results flagged for a closer look

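In groups of 4, a single lymphoma stood apart from its side in 28 of 258 groups checked, where chance gives about 1 in 20. Genes of 1 chromosome are not independent groups, and some genes were chosen for their large differences. The count also holds the chromosome 14 median that chose the sides and genes of that chromosome. Nothing is therefore read from the count against that rate. Mouse 7 of the retained side had 75.8 Mb gained outside chromosome 14 against 159 to 175 Mb in the others, and a chromosome 14 median of 0.28 over 50 to 60 Mb. Its log2 ratios of Bcl2l2, Irf9, Fgf9 and Lcp1, all on that chromosome, were 0.62, 0.17, 0.31 and 0.30. Mouse 4 of the retained side stood apart with 238 Mb lost, 111 called segments, medians of 0.13 on chromosome 4 and -0.12 on chromosome 19, and -0.35 in Igk. Mouse 8 of the retained side had a chromosome 10 median of 0.10 and a Spry2 value of -0.60. Mouse 1 of the retained side had Notch1 at 1.75, Runx1 at 1.91, Dclre1c at 0.56, Brca1 at 0.032 and Bcl11b at -0.135.

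On the lost side, mouse 2 had a chromosome 4 median of 0.29, Slc45a1 at 3.28, H6pd at 3.43, Gata3 at 0.88, Parp1 at 0.22 and Dach1 at -0.18. Mouse 6 had Igl at 0.29, Myc at -1.25, Lck at -0.44 and Rag1 at -0.63.

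Among the 14 arrays without a lymphoma, which belong to neither side, mouse 11 had lost 57.4% of chromosome 14 beyond Tcra/Tcrd, 40.2 Mb at a mean of -0.77. The others had lost at most 0.0404% at -0.4 or lower. At shallower means, mice 2, 9 and 14 had nearly the whole stretch at -0.26, -0.34 and -0.35, and mouse 1 had all of it at 0.44. The median of mouse 11 over 50 to 60 Mb was 0.02, so the window of the rule lay outside its loss.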

How the results depend on the processing

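The difference in altered DNA (lost side minus retained side, -15.2 Mb) turned to 17.7 Mb with centring on the mode, 96.7 Mb with normexp and 53.4 Mb with a segment threshold of 0.40 (exact permutation p = 0.0571), and ran from -54.9 to 44.5 Mb on leaving out single lymphomas. That in lost DNA (-48.4 Mb) turned to 9.39 Mb with normexp and 7.13 Mb at the 0.40 threshold, and ran from -71.5 to 3.33 Mb without single lymphomas, above 0 only without mouse 4. That in called segments (9.5) turned to -18.8 with normexp and -12.6 with the scan day as a block, and ran from -4.08, without mouse 2, to 25.6. Counted as steps it was 25.8, 23.3 and 14.3 for steps of 0.4, 0.5 and 0.7 without a minimum length. It turned to -2.5, -2.25 and -0.25 in 3 forms with a minimum length. All these forms were chosen after seeing the data and include receptor loci. Genes called by limma outside chromosome 14 numbered 1 with centring on the mode, 0 with normexp (538 at an unadjusted p under 0.05), 15 with the scan day as a term, 4 with at least 1 probe, 36 on all 22 arrays, and 1 to 49 without single lymphomas. All these gene counts come from adjustments that held the chromosome 14 genes. The chromosome 14 difference over 50 to 60 Mb was -0.92, and -0.63 with normexp, where the highest lost-side median of -0.27 no longer met the rule. Among single chromosomes, loci and genes, chromosome 4 turned to -0.035 with the block and ran from -0.031 (without mouse 2) to 0.081 without single lymphomas, chromosome 15 ran from -0.0075 (without mouse 8) to 0.12, Igh turned to -0.14 without flanks, and Tcrb turned to 0.38 with the block and ran from -0.47 to 0.029 without single lymphomas, above 0 without mouse 2 or mouse 5. These 7 were the values that turned among 462 of this kind. The cause was not tested. No paired analysis was possible because replicate numbers only name the mice.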
